A study of Mus musculus with 2 samples.

Results

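The imprinted Dlk1-Dio3 locus of mouse chromosome 12 holds a long row of miRNA hairpins, and the 10 described here are Mir770, Mir673, Mir337, Mir540, Mir665, Mir431, Mir433, Mir127, Mir434 and Mir136. They lie in its first stretch, from an exon of the noncoding RNA Meg3 to the Rtl1 gene, and 5 of them lie antisense to Rtl1. They were chosen by name, with earlier results of these data known. They are 10 of the 1174 hairpins with a miRNA name in the GENCODE M21 annotation. A small RNA tag was counted for them when it matched one of these hairpins perfectly over its whole length. The data were 2 small RNA libraries of J1 mESCs, a widely used mouse embryonic stem cell line, grown on gelatin in medium with Knockout Serum Replacement and 1000 U/mL of the self-renewal cytokine LIF. The PD library came from cells given 1 μM of the MEK inhibitor PD0325901 (PD), which shuts off ERK1/2 signaling, for 24 h, and the control library came from cells given DMSO for the same time. Before sequencing, RNA from 3 independent experiments per treatment was mixed, so that each treatment had 1 library and no difference between the treatments has a replicate or a test. The comparison asked which of these miRNAs differed between cells with and without MEK inhibition.

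A miRNA hairpin is cut by Drosha and Dicer into a duplex of a 5p and a 3p arm, and an arm that is loaded into an Argonaute protein directs it to target RNAs, mainly through its seed near the 5′ end. The miRNAs of this locus are expressed from the maternal chromosome together with Meg3, while Dlk1, Rtl1 and Dio3 are expressed from the paternal one. Rtl1 is a gene derived from a retrotransposon that the placenta needs, and the miRNAs transcribed antisense to it pair perfectly with its mRNA and can direct its cleavage.

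The mature sequences on which the results below turn are given here 5′ to 3′ from the RefSeq miRNA table of build GRCm38.p6, in which all 10 hairpins and all 20 arms were found, with the seed (bases 2 to 8) in capitals. The first pair comprises the most abundant arms, the next 2 pairs are both arms of the hairpins with the largest shifts between arms, and the last pair had lower levels in the PD library.
miR-433-3p: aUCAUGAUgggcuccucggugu
miR-127-3p: uCGGAUCCgucugagcuuggcu
miR-540-5p: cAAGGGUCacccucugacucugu
miR-540-3p: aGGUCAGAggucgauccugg
miR-136-5p: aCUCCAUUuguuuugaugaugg
miR-136-3p: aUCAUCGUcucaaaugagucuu
miR-433-5p: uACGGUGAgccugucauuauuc
miR-434-5p: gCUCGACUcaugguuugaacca
No seed was shared between any of the 20 arms, so that the 10 hairpins do not form a seed family. Among the 1738 mature miRNAs of that table, 2 of the 20 seeds were found in another miRNA, that of miR-540-3p in miR-6915-5p and that of miR-673-5p in miR-6985-3p.

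Clean reads numbered 18870345 in the control and 20944808 in the PD library. Levels are given as reads per 1000000 clean reads (RPM), and 3 reads corresponded to 0.159 and 0.143 RPM, respectively. Reads of 20 to 24 nt, the usual size of a miRNA, were 63.0% of the control and 52.0% of the PD library, and 11.6% and 10.1% of the reads matched a miRNA hairpin. Hairpins of the miR-290 and miR-302 clusters, which mark mouse embryonic stem cells, summed to 31117 RPM in the control and to 26395 RPM in PD (11 of 12 listed names, all with reads; Mir292a is annotated as Mir292 and was not in the sum). The 5 fibroblast hairpins summed to 209 and 179 RPM, and 13 of 14 hairpins of differentiated neural, muscle, liver and blood cells had reads (not Mir223), with 458 and 677 RPM in sum. The part of such cells in the results below was not tested, and a lower level in fewer cells cannot be told apart from less of a miRNA in each cell.

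The 10 hairpins lay in 31.7 kb on the plus strand of chromosome 12 (GRCm38), from chr12:109563692-109563785 for Mir770 to chr12:109595327-109595388 for Mir136. Mir770 overlapped an exon of Meg3, Mir673, Mir337, Mir540 and Mir665 overlapped no annotated gene other than a hairpin on the minus strand opposite Mir337 (Mir3544), and Mir431, Mir433, Mir127, Mir434 and Mir136 lay opposite the coding exon of Rtl1, which is transcribed from the minus strand. Together the 10 hairpins were matched by 291 distinct tags with 46033 reads (2439 RPM) in the control and with 38922 reads (1858 RPM) in PD. These were 2.11% of the control reads on miRNA hairpins and 1.84% of those in the PD library. Nearly all of them, 99.97% in both libraries, fell on a 5p or a 3p arm, and 15 and 13 reads lay elsewhere in the hairpins. None of the tags matched another miRNA hairpin, and only those of Mir770 also matched another transcript, Meg3, of which this hairpin is a piece.

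The antisense hairpins held the most abundant arms. In the control library miR-433-3p had 18691 reads (990 RPM) and was 25th among the 499 detected miRNAs (1 RPM or more in the control or in PD), and in the PD library it had 15532 reads (742 RPM) and was 32nd. The other abundant arm, miR-127-3p, had 16838 reads (892 RPM) in the control library and 13970 reads (667 RPM) with PD, in the 31st and 35th place. These arms together made up 77.2% of all reads of the 10 hairpins in the control and 75.8% in the PD library. The next arm, miR-434-3p, had 3576 reads (190 RPM) and 3466 reads (165 RPM), and it was followed by the upstream arms miR-337-5p, with 1456 reads (77.2 RPM) and 1098 reads (52.4 RPM), and miR-665-3p, with 1331 reads (70.5 RPM) and 1229 reads (58.7 RPM). Of the 20 arms, 18 were detected. Below 1 RPM in both libraries were miR-673-3p, with 1 read in the control and 3 in the PD library, and miR-665-5p, with 2 and 5 reads.

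**Figure D1:**
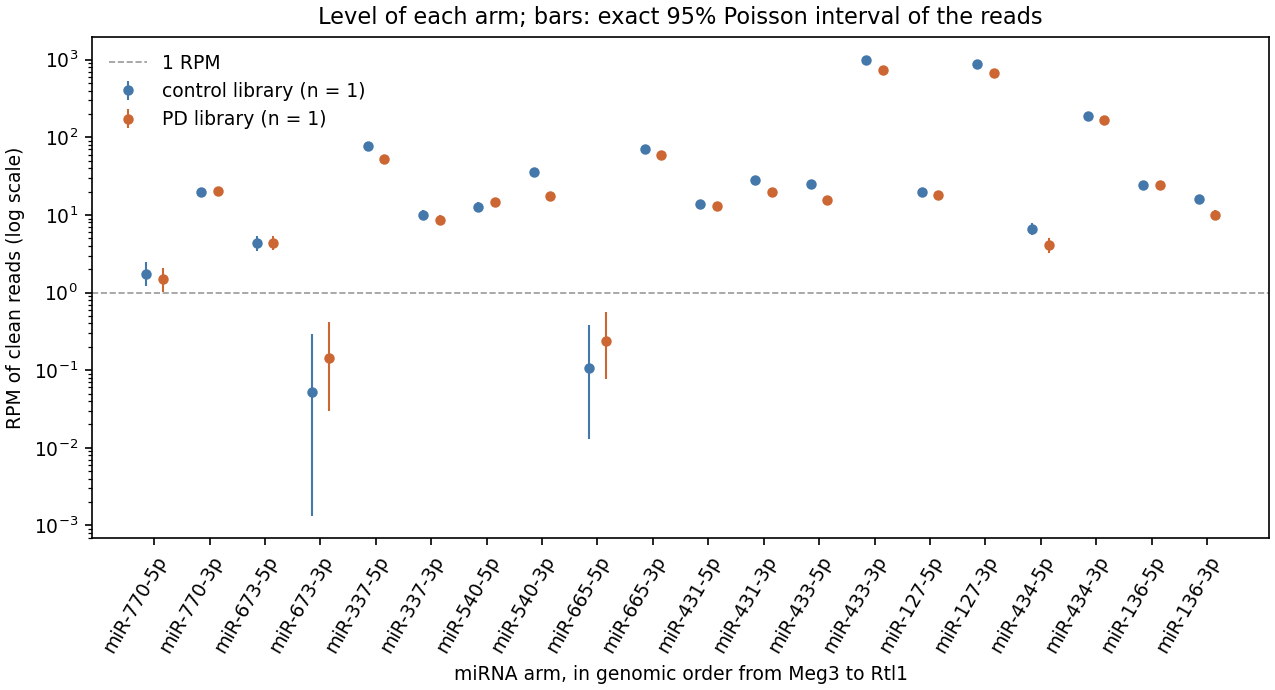
The level of each of the 20 arms in the control (blue) and the PD library (orange), in RPM of clean reads on a log scale, with the arms in genomic order and exact 95% Poisson intervals of the reads. miR-433-3p and miR-127-3p stand above all other arms, and miR-673-3p and miR-665-5p lie below the dashed line at 1 RPM.

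In both libraries the 3 highest arms kept the order miR-433-3p, miR-127-3p and miR-434-3p, with intervals that did not overlap. Among the other detected arms many neighbours in the order could not be separated by the sampling of reads. In the control library 8 of 17 neighbouring pairs had overlapping 95% Poisson intervals, and in the PD library 11 of 17 did. In the control, miR-337-5p and miR-665-3p overlapped, as did miR-431-3p (27.9 RPM), miR-433-5p (25.3 RPM) and miR-136-5p (24.3 RPM), and the arms from miR-770-3p (19.9 RPM) down to miR-337-3p (10.1 RPM) each overlapped the next. In the PD library the chain of overlapping neighbours ran from miR-136-5p (24.0 RPM) to miR-337-3p (8.74 RPM). The lowest detected arm was miR-770-5p, with 33 reads (1.75 RPM) in the control library and 31 reads (1.48 RPM) with PD.

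Per clean read, most of the detected arms had a lower level in the PD library than in the control, as did most other miRNAs. The ratio of PD to control RPM was below 1 for 15 of the 18 arms, with a median of 0.839 (log2 -0.25), and below 1 for 67.5% of the 499 detected miRNAs, with a median of 0.888 (log2 -0.17). At a fold change of 1.5 or more, 4 of the 18 arms (22.2%) were lower in PD, while 13.8% of all detected miRNAs were. None of the 18 arms was higher by 1.5-fold, against 6.01% of all detected miRNAs, and 19.8% passed this fold in either direction. Per read of 20 to 24 nt only 8 of the 18 arms were below the control, and of all detected miRNAs 59 were higher and 23 lower by 1.5-fold, against 30 and 69 per clean read, so that the prevailing direction depends on the denominator. These are descriptions of 2 libraries, and the few arms do not separate their share from that of all miRNAs.

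The arms lower by 1.5-fold or more came from 4 hairpins. miR-540-3p, from upstream of Rtl1, had 672 reads (35.6 RPM) in the control library and 368 reads (17.6 RPM) with PD, a ratio of 0.493 (exact 95% interval 0.433 to 0.561). Only 2.81% of the detected miRNAs had a lower ratio. miR-136-3p had 307 reads (16.3 RPM) and 211 reads (10.1 RPM), a ratio of 0.619 (0.517 to 0.740). miR-434-5p, the minor arm of its hairpin, had 125 reads (6.62 RPM) and 86 reads (4.11 RPM), a ratio of 0.620 (0.465 to 0.822). miR-433-5p, also a minor arm, had 478 reads (25.3 RPM) and 331 reads (15.8 RPM), a ratio of 0.624 (0.541 to 0.719). All 4 intervals lay below 1, and those of miR-136-3p, miR-434-5p and miR-433-5p also held a level lower by exactly 1.5-fold. Under other denominators, and with perfectly matching tags, only miR-540-3p passed 1.5-fold, with ratios of 0.555 to 0.598. The median of all detected miRNAs then moved by more than 0.1 on the log2 scale. It became 0.03 per miRNA-matching read, 0.11 per read of 20 to 24 nt and 0.00 with TMM or DESeq2 factors.

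Lower levels short of 1.5-fold were found for the abundant arms. With perfectly matching tags the ratio was 0.749 (0.733 to 0.765) for miR-433-3p and 0.747 (0.731 to 0.764) for miR-127-3p. In these tags the arms, from hairpins next to each other, did not differ in their ratio beyond the sampling of reads. With tags that carry added 3′ bases, described below, counted in, the ratios were 0.750 (0.735 to 0.766) for miR-433-3p and 0.788 (0.775 to 0.801) for miR-127-3p. Those intervals did not overlap. miR-337-5p had a ratio of 0.679 (0.628 to 0.735), and miR-431-3p, with 526 reads (27.9 RPM) and 408 reads (19.5 RPM), one of 0.699 (0.613 to 0.797). Those of miR-665-3p and miR-434-3p were nearer to 1, at 0.832 (0.769 to 0.900) and 0.873 (0.833 to 0.915). In all, the interval lay below 1 for 10 of the 18 arms and above 1 for 0 of them, while 38.9% of all detected miRNAs had an interval below 1 and 10.6% one above 1. Per miRNA-matching read those of miR-665-3p, at 0.954 (0.882 to 1.03), and miR-434-3p, at 1.00 (0.955 to 1.05), held 1. Per read of 20 to 24 nt the interval of miR-434-3p lay above 1, at 1.06 (1.01 to 1.11). An interval of this kind narrows with the number of reads and holds no variation between cultures or libraries.

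The other 8 arms had intervals that held 1 when counted per clean read. miR-540-5p, from the same hairpin as miR-540-3p, had 241 reads (12.8 RPM) in the control library and 310 reads (14.8 RPM) with PD, a ratio of 1.16 (0.976 to 1.38) that was the highest of the 18. miR-770-3p had 375 reads (19.9 RPM) and 431 reads (20.6 RPM), miR-673-5p 81 reads (4.29 RPM) and 92 reads (4.39 RPM), and miR-136-5p 459 reads (24.3 RPM) and 502 reads (24.0 RPM). Their ratios were 1.04 (0.900 to 1.19), 1.02 (0.751 to 1.40) and 0.985 (0.866 to 1.12). The ratios of miR-431-5p, miR-127-5p, miR-337-3p and miR-770-5p lay between 0.846 and 0.928. At these depths such a difference per clean read could not be told from sampling, which does not show that the levels were equal. With each of the 4 other denominators, and perfectly matching tags only, the intervals of miR-540-5p and miR-770-3p lay above 1. Per miRNA-matching read their ratios were 1.33 (1.12 to 1.58) and 1.19 (1.03 to 1.37), and per read of 20 to 24 nt miR-136-5p also lay above 1, at 1.19 (1.05 to 1.36).

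**Figure D2:**
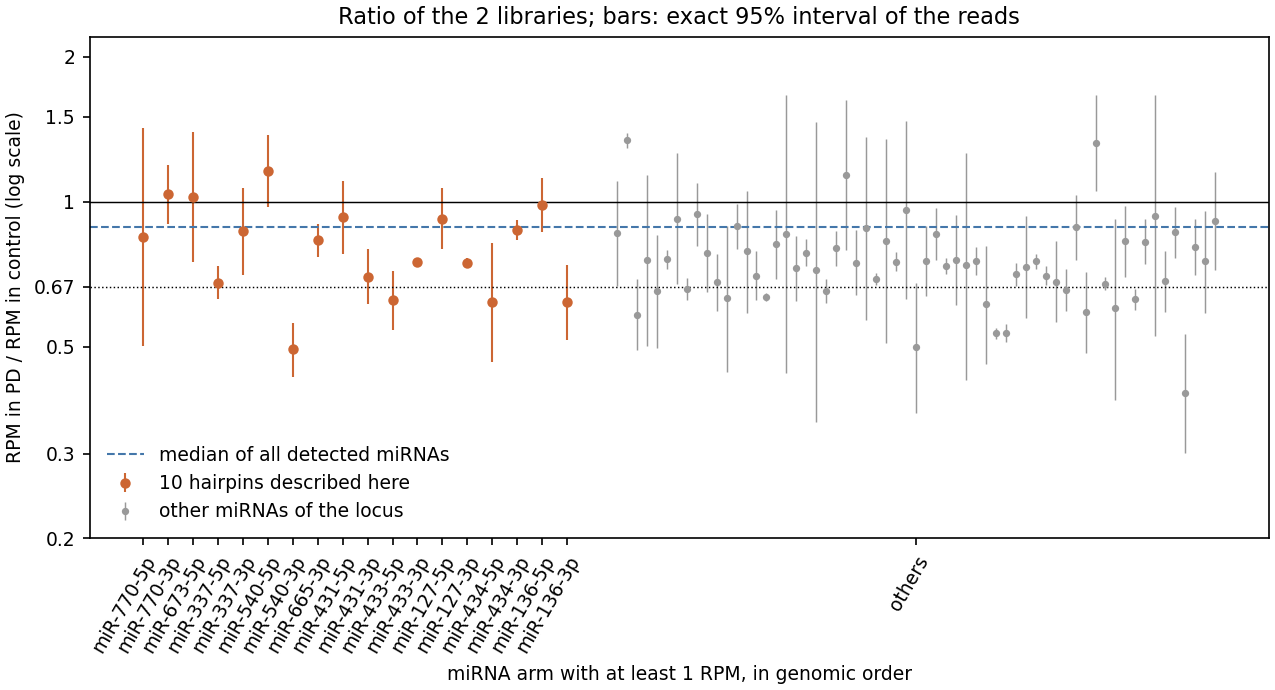
The ratio of PD to control RPM on a log scale for the 18 detected arms of the 10 hairpins (orange, in genomic order) and for the 61 detected arms of the other miRNAs of the locus (grey, in genomic order), with exact 95% intervals of the reads. The dashed line is the median of all detected miRNAs, 0.888, the dotted line is a 1.5-fold lower level, and miR-540-3p is the lowest of the orange points at 0.493.

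The ratio depended on the length of the tags. Over all miRNA hairpins, the ratio of PD to control RPM was 0.433 for tags of 18 and 19 nt, 0.759 for tags of 20 and 21 nt and 0.924 for tags of 22 nt or more. For the 10 hairpins it was 0.434 (0.385 to 0.488), 0.745 (0.722 to 0.768) and 0.774 (0.762 to 0.786). The short and middle classes were thus close to all miRNAs and the longest class was lower in sum. The other miRNA hairpins of the locus had a like ratio in the longest class, 0.772 (0.763 to 0.782). By arm, the median ratio in that class was 0.895 for the 10 hairpins and 0.937 for all miRNAs, a smaller gap. Whether the length class reflects the cells or the preparation of the libraries was not tested.

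Short tags were frequent in 3 of the 4 arms with the lowest ratios. Tags under 20 nt were 47.6% of the control reads of miR-136-3p, 32.8% of those of miR-434-5p and 22.9% of those of miR-540-3p, but 0.0950% of those of miR-127-3p and 0.952% of those of miR-433-3p. Counted with tags of 22 nt or more only, a choice made after the data had been seen, miR-540-3p had 129 and 105 reads, a ratio of 0.733 (0.561 to 0.956). The ratio of miR-136-3p became 1.05 (0.704 to 1.56) and that of miR-434-5p 1.12 (0.729 to 1.72), both with intervals that held 1. The miR-433-5p ratio stayed at 0.639 (0.533 to 0.765), and this arm had no tag under 20 nt in either library. miR-127-3p and miR-433-3p, at 0.752 and 0.767, also stayed near their values over all lengths. Across the 18 arms the mean tag length in the control and the log2 ratio had a Pearson r of 0.35 and a Spearman rho of 0.17, and across the 499 detected miRNAs these were 0.12 and 0.10. The points share both libraries, and the correlations are weak.

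A longer product was more frequent in PD for miR-136-5p. Over all lengths the interval of its ratio held 1 per clean read, but not per read of 20 to 24 nt. Its most frequent tags were these, with the seed in capitals, shown because they differ by 3 bases at the 3′ end and moved apart.
miR-136-5p of 23 nt: aCUCCAUUuguuuugaugaugga
miR-136-5p of 20 nt: aCUCCAUUuguuuugaugau
The tag of 23 nt had 139 reads in the control and 245 in the PD library, a ratio of 1.59 (1.28 to 1.97). The tag of 20 nt had 190 and 141 reads, a ratio of 0.669 (0.534 to 0.836). The intervals did not overlap, and the shorter tag was the more frequent one in the control and the less frequent one in the PD library. Within miR-540-3p both the short and the long tag were lower in PD, to different degrees. The tag of 18 nt had 115 and 39 reads, a ratio of 0.306 (0.207 to 0.443), and that of 22 nt had 121 and 99 reads, a ratio of 0.737 (0.559 to 0.969). An exception was miR-665-3p, whose tags of 20 and 21 nt had 116 and 202 reads, a ratio of 1.57 (1.24 to 1.99), while those of 22 nt or more had 1205 and 1025 reads, a ratio of 0.766 (0.704 to 0.834).

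**Figure D3:**
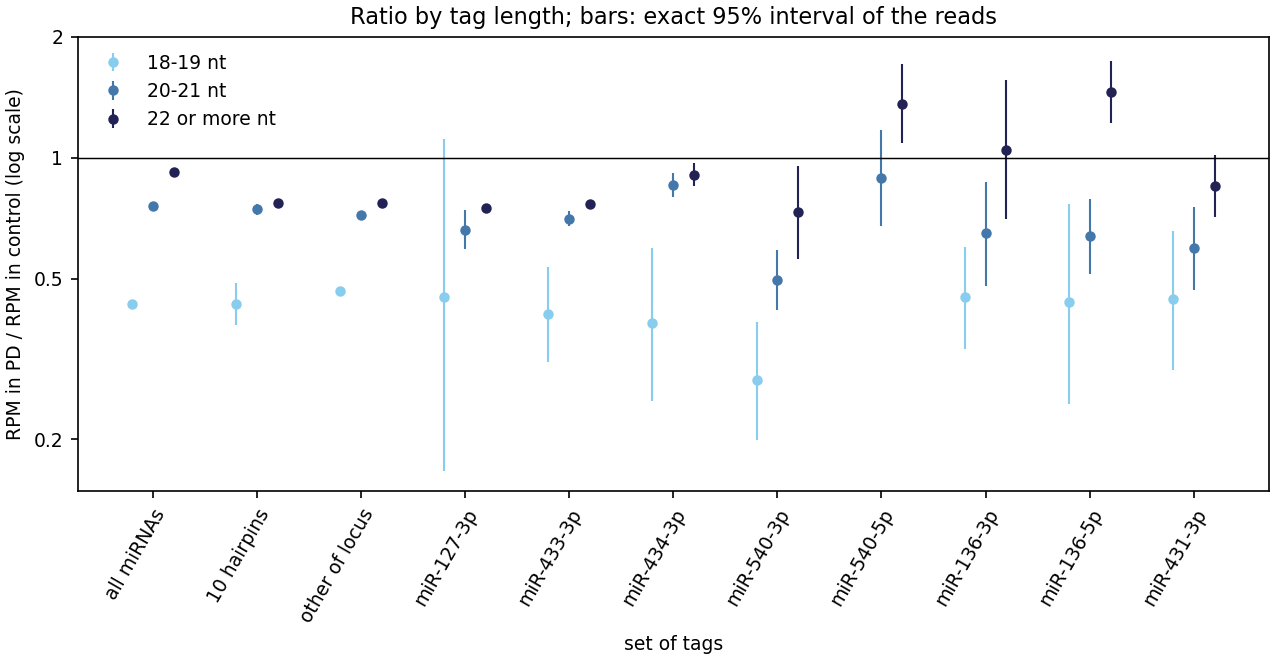
The ratio of PD to control RPM on a log scale by tag length (18 and 19 nt, 20 and 21 nt, 22 nt or more) for all miRNA hairpins, the 10 hairpins, the other miRNAs of the locus and 8 arms (miR-127-3p, miR-433-3p, miR-434-3p, both arms of Mir540 and of Mir136, and miR-431-3p), with exact 95% intervals; classes with fewer than 5 reads in a library are left out. In the sets shown the point for a longer class lies above that for a shorter one, and over all miRNAs the ratio goes from 0.433 to 0.924; some arms that are not shown, such as miR-665-3p, miR-434-5p, miR-127-5p and miR-337-5p, do not follow this order.

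The arms of a hairpin come from 1 precursor, and their shares need no denominator. The 3p arm had more reads than the 5p arm in both libraries in 7 of the 10 hairpins, and in 47.7% of the 354 hairpins with reads on both arms and at least 20 reads. It held over 90% of the reads of Mir770, Mir665, Mir433, Mir127 and Mir434, and the extreme was Mir665 with 1331 reads of the 3p and 2 of the 5p arm in the control. The 5p arm prevailed in Mir673, with 81 reads against 1, in Mir337, with 1456 against 190, and in Mir136, with 459 against 307.

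Between the libraries the share of the 3p arm differed most in Mir540. The control had 241 reads of the 5p and 672 of the 3p arm, and the PD library had 310 and 368. The 3p share was thus 73.6% (exact 95% interval 70.6 to 76.4) in the control and 54.3% (50.4 to 58.1) in the PD library. The odds ratio was 0.426 (0.343 to 0.529), with an adjusted p of 4.92e-14 in a two-sided Fisher's exact test with Benjamini-Hochberg adjustment over the 354 hairpins. In Mir136 the 3p share was 40.1% (36.6 to 43.6) in the control and 29.6% (26.3 to 33.1) in the PD library, an odds ratio of 0.629 (adjusted p = 4.43e-04 in the same exact test). In Mir127 it was 97.8% (97.6 to 98.0) and 97.3% (97.1 to 97.6), an odds ratio of 0.810 (adjusted p = 0.0394 in the same exact test). This test compares the reads of the 2 libraries and not the treatments.

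Thus 3 of the 10 hairpins passed the test on perfectly matching tags, all with a lower 3p share in PD. Of the 354 hairpins, 12.1% passed it in either direction and 8.19% with a lower 3p share. Tags with added 3′ bases, described below, were not in these shares, and their numbers differed between arms. At the main start miR-540-3p had 174 and 180 such reads in the control and PD library, and miR-540-5p had 7 in each. For Mir127 they numbered 14152 and 13139 on the 3p arm and 7 and 8 on the 5p arm. Arm shares with these tags were not tested. The change of -19.3 points in Mir540 stands against a median absolute change of 1.67 points over the 354 hairpins, and that of Mir127, though past the threshold, was -0.496 points. In the other 7 hairpins the test was not passed, with adjusted p from 0.0803 for Mir431 to 0.979 for Mir673 in the same exact test. The 3p share of Mir431 was 66.8% (63.3 to 70.04) in the control and 60.2% (56.4 to 63.9) in the PD library. Mir433 had 97.5% and 97.9%, and Mir434 96.6% and 97.6%. Mir337 had 11.5% and 14.3%, and Mir770 91.9% and 93.3%.

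The tag lengths touch these shares as well. With tags of 20 nt or more, Mir540 kept an adjusted p of 3.44e-09 in the exact test, while Mir136 changed by -5.55 points with an adjusted p of 0.161. With tags of 22 nt or more, Mir540 changed by -15.0 points with an adjusted p of 0.00746 in the exact test. Mir136 and Mir127 did not pass it then, with adjusted p of 0.513 and 0.221 in the exact test.

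**Figure D4:**
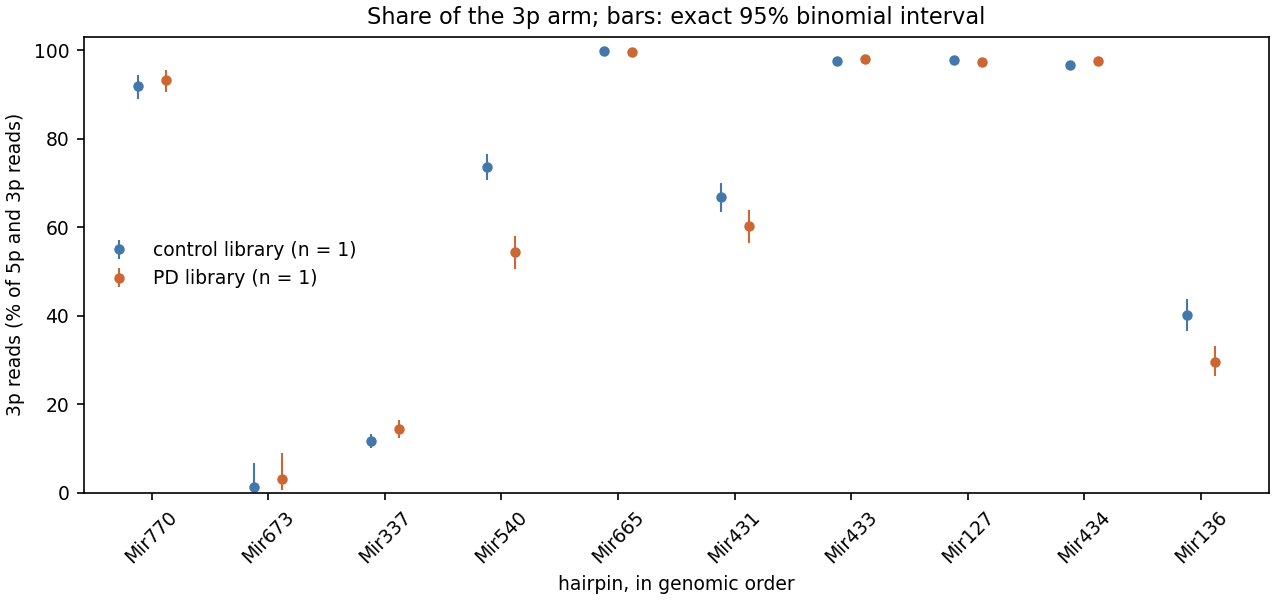
The share of the 3p arm in the perfectly matching reads of both arms, in percent, for the 10 hairpins in genomic order in the control (blue) and the PD library (orange), with exact 95% binomial intervals. Mir540 goes from 73.6% to 54.3% and Mir136 from 40.1% to 29.6%, while the hairpins near 0% or 100% move little.

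The 5′ end of a miRNA sets its seed, and most arms had 1 main start. The most frequent tag began at the first base of the RefSeq mature miRNA in 16 of the 20 arms and was identical to it in 10. Among the 15 arms with at least 100 reads in both libraries, the median share of reads that began at the main start was 94.9% in the control and 92.3% in the PD library, and over the 297 such arms of all miRNAs it was 98.0% and 97.8%. For miR-127-3p the share was 99.6% in the control. For miR-433-3p, the most abundant arm, it was 77.9% in the control and 78.5% in the PD library. Its second most frequent tag began 1 base downstream and so carried another seed. That tag had 3713 and 3047 reads, a ratio of 0.739 (0.705 to 0.776).

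In 4 arms, miR-770-3p, miR-431-3p, miR-127-5p and miR-136-3p, the most frequent tag began elsewhere and so carried another seed. The difference was clearest in miR-431-3p and miR-136-3p, for which the RefSeq sequence and the most frequent tag are given with bases 2 to 8 in capitals.
miR-431-3p, RefSeq: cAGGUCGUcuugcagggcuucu
miR-431-3p, most frequent tag: uGCAGGUCgucuugcagggcuuc
miR-136-3p, RefSeq: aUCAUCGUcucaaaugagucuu
miR-136-3p, most frequent tag: cAUCAUCGucucaaaugaguc
The miR-431-3p tag began 2 bases upstream, and that start held 80.2% of the reads of the arm in the control, against 5.13% at the RefSeq start. In the PD library the RefSeq start held 3.92%. The miR-136-3p tag began 1 base upstream, at a start with 96.1% of the control reads, and the RefSeq start held 2.93% (9 of 307 reads) in the control and 8.06% (17 of 211 reads) in the PD library. None of the 4 shifted seeds was the seed of a mature miRNA in the RefSeq table.

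For miR-127-5p the starts were mixed. The RefSeq start held 47.6% of the reads in the control and 38.9% in the PD library, and a start 2 bases downstream, which carried the most frequent tag, held 36.1% and 46.5%. The most frequent tags at these starts were as follows.
miR-127-5p at the downstream start: gAAGCUCAgagggcucugauuc
miR-127-5p at the RefSeq start: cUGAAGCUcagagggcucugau
The downstream tag had 117 reads in the control and 144 in the PD library, a ratio of 1.11 (0.863 to 1.43). The RefSeq tag had 62 and 37 reads, a ratio of 0.538 (0.348 to 0.821), below the interval of the first. Other tags at the RefSeq start, of 23, 19 and 21 nt, had ratios of 0.863, 0.715 and 1.19, each with an interval that held 1. All reads at the RefSeq start numbered 178 and 149, and those at the downstream start 135 and 178. The starts of miR-770-3p were mixed too, with 33.3% of the reads at the RefSeq start in the control and 39.4% in the PD library. For miR-337-3p the most frequent tag has the RefSeq start, but that start held only 44.2% of the reads in the control and 45.4% in the PD library. Its next most frequent tags began 1 base upstream, with 46 and 40 reads in the control and 50 and 36 in the PD library, against 76 and 72 for the most frequent tag.

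Tags with extra bases at the 3′ end are outside the perfect match and were examined apart. A tag was called tailed when it began at the main start and matched the hairpin over at least 18 nt. It also had to end in 1 to 3 bases that the hairpin does not have there. The tailed share is that of tailed reads among all tailed and untailed reads at the main start. Over the 297 arms with at least 100 reads in both libraries the median tailed share was 6.79% in the control and 8.05% in the PD library. Over the 15 arms of the 10 hairpins among them it was 7.87% and 9.78%. No genome sequence was at hand, so that other genomic matches of tailed tags were not searched.

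The abundant miR-127-3p was among the most tailed. Of its reads at the main start 45.8% (exact 95% interval 45.2 to 46.3, 14152 tailed reads) carried a tail in the control. In the PD library 48.5% (47.9 to 49.1, 13139 tailed reads) did. Only 14 of the 297 arms had a higher share in the control. Tails of A alone had 4029 reads in the control, tails of U alone 4012, and mixed tails 6085. The most frequent forms were these, with the added bases in capitals.
miR-127-3p with AU: ucggauccgucugagcuuggcuAU
miR-127-3p with U: ucggauccgucugagcuuggcuU
miR-127-3p with A: ucggauccgucugagcuuggcuA
miR-127-3p with AA: ucggauccgucugagcuuggcuAA
The form with AU had 3939 reads in the control and 3850 in the PD library, a ratio of 0.881 (0.842 to 0.921). The form with U had 3151 and 2991 reads, a ratio of 0.855 (0.813 to 0.899). Those with A and AA had ratios of 0.735 (0.684 to 0.790) and 0.727 (0.6698 to 0.790), near the 0.747 of the untailed miRNA, so that of these 4 forms those ending in U had the higher ratios. With tailed tags counted in, the ratio of miR-127-3p was 0.788 (0.775 to 0.801), above the 0.750 (0.735 to 0.766) of miR-433-3p.

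By contrast miR-433-3p, of like abundance, had tails on 7.87% of its main-start reads in the control and 8.08% in the PD library. The highest share of the 15 arms was that of miR-770-3p, with 58.0% and 55.2%. The main start held only 56.8% of its untailed reads in the control, and tailed reads at other starts were not counted. With tailed tags counted in, the ratio of miR-770-3p was 0.959 (0.862 to 1.07) per clean read, against 1.04 without them. miR-665-3p had a tailed share of 29.6% and 30.4%, and 418 of its 547 tailed reads in the control carried U alone. miR-431-3p had 22.9% in both libraries. At the other end miR-136-3p had 1 tailed read in each library, 0.338% and 0.521%.

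Besides miR-127-3p, whose intervals are given above, the tailed share had separate intervals in the libraries for miR-540-3p and miR-136-5p. It was 21.3% (18.6 to 24.3) in the control and 33.8% (29.8 to 38.0) in the PD library for miR-540-3p, with 174 and 180 tailed reads and 642 and 353 untailed ones. For miR-136-5p it was 9.40% (6.77 to 12.6) and 16.5% (13.4 to 19.96), and the 39 tailed reads in the control were all A tails, of which 37 were the 24 nt form with 1 added A.
miR-136-5p with A: acuccauuuguuuugaugauggaA
This form had 83 reads in the PD library, a ratio of 2.02 (1.36 to 3.06). The untailed 23 nt tag that it extends had 139 and 245 reads, a ratio of 1.59 (1.28 to 1.97), and these intervals overlapped. The most frequent tailed forms of miR-540-3p added U or A to its 22 nt tag. Their ratios were 0.811 (0.464 to 1.41) and 0.701 (0.377 to 1.29), against 0.737 (0.559 to 0.969) for that tag. In both arms the tailed share was thus not told apart from the shift in tag length. For neither miR-540-3p nor miR-136-5p did the intervals of the tailed share overlap between the libraries. The tailed share was higher in PD for 11 of the 15 arms and for 65.0% of the 297 arms. Counted with its tailed tags, miR-540-3p had a ratio of 0.584 (0.523 to 0.651) per clean read, past 1.5-fold. Divided by 0.872 for miRNA-matching reads or by 0.826 for reads of 20 to 24 nt, it falls short of 1.5-fold. Divided by 0.890 or 0.888 for TMM or DESeq2 factors, it stays past it.

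**Figure D5:**
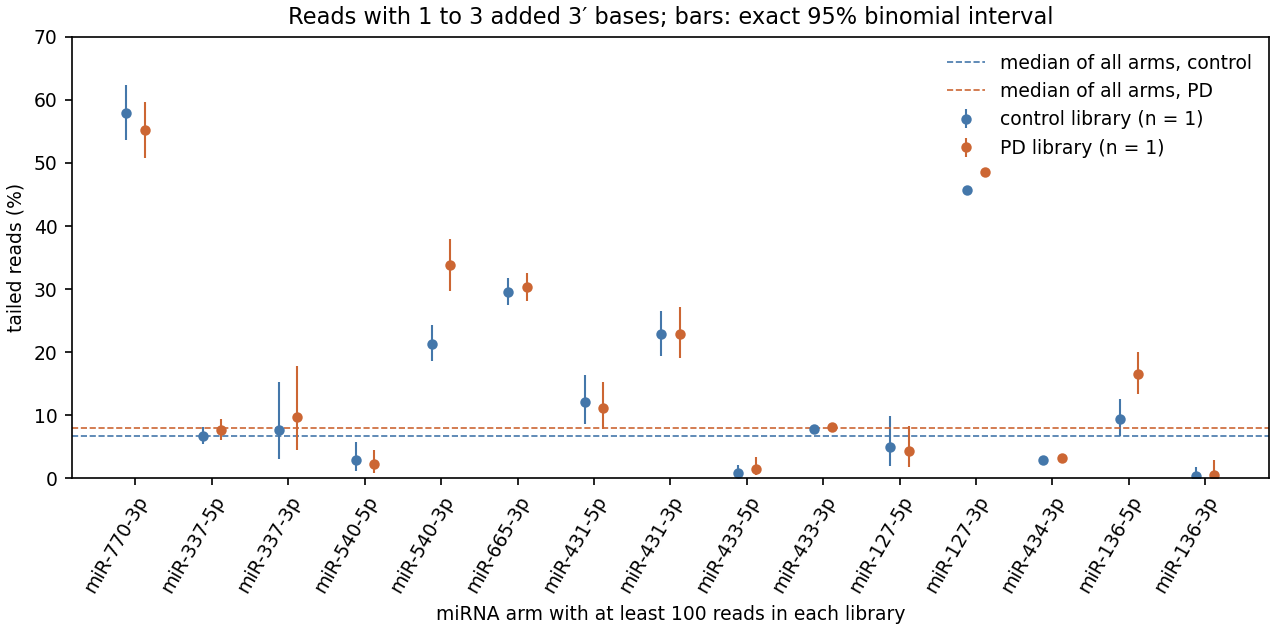
The share of main-start reads with 1 to 3 added 3′ bases, in percent, for the 15 arms with at least 100 reads in each library, in the control (blue) and the PD library (orange), with exact 95% binomial intervals. Dashed lines are the medians of the 297 arms of all miRNAs. miR-770-3p and miR-127-3p stand highest, and miR-540-3p and miR-136-5p have the gaps between the libraries with separate intervals among arms under 40%.

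The most frequent tags of all 10 arms of Mir431, Mir433, Mir127, Mir434 and Mir136 had a perfect antisense site each in the coding sequence of the annotated Rtl1 transcript. The sites of the most abundant arms are given 5′ to 3′ on the Rtl1 strand, with the bases opposite the seed in capitals.
Rtl1 site of miR-433-3p, chr12:109591781-109591802, minus strand: acaccgaggagcccAUCAUGAu
Rtl1 site of miR-127-3p, chr12:109592888-109592909, minus strand: agccaagcucagacGGAUCCGa
On the strand antisense to Rtl1 the tags summed to 41665 reads in the control and 35195 in the PD library, of which 99.95% and 99.91% lay in these hairpins and 21 and 30 reads in no hairpin. Tags that matched Rtl1 itself in sense and no other transcript had 1 read in the control and 0 in the PD library, which allows up to 0.143 RPM in PD. The level of Rtl1 mRNA was not measured by these libraries, since they hold RNA of miRNA size.

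The other miRNAs on the same strand of the locus, between Dlk1 and Dio3, had 47 named hairpins and 61 detected arms. Most lie further along than Mir136, while Mir493, Mir3070a and Mir3070b lie between the hairpins described here. They summed to 126558 reads (6707 RPM) in the control library and 97093 reads (4636 RPM) with PD. This ratio of 0.691 (0.685 to 0.697) was below the 0.762 (0.752 to 0.772) of the 10 hairpins. Summed over tags of 22 nt or more only, the ratios were alike, at 0.772 (0.763 to 0.782) and 0.774 (0.762 to 0.786). In the control, tags of 18 and 19 nt had 25430 reads in the other hairpins and 860 in the 10 hairpins. At 1.5-fold 15 of the 61 arms (24.6%) were lower in PD and 0 were higher, and the median ratio was 0.752, against 0.839 for the 18 arms. With tags of 22 nt or more the median ratios were 0.786 for 50 arms and 0.895 for 17 arms, and that of all miRNAs was 0.937 for 424. No test separates these medians, since arms of 1 locus in 1 library are not independent replicates.

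The 5 most abundant arms of these other hairpins were miR-323-3p, miR-382-5p, miR-543-3p, miR-541-5p and miR-485-5p. Among them miR-323-3p, with 26011 reads (1378 RPM) in the control library and 18342 reads (876 RPM) with PD, stood above miR-433-3p in both libraries. Its ratio was 0.635 (0.623 to 0.647), that of miR-382-5p was 0.533 (0.520 to 0.547), and the others ran from 0.676 to 0.752. Only 3 of the 61 arms had a ratio above 1, and they are named after their values were seen: miR-341-3p with 1.34 (1.29 to 1.39), miR-377-3p with 1.32 (1.05 to 1.67) and miR-1193-3p with 1.13 (0.792 to 1.63).

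Fragments of the genes around the hairpins were few, apart from those of Mirg. Tags that matched 1 gene of the locus and no miRNA hairpin had 14 reads in the control and 13 in the PD library for Meg3, 97 and 86 for Rian and 876 and 656 for Mirg, the noncoding RNAs of the maternal chromosome. For Mirg this was 46.4 and 31.3 RPM, a ratio of 0.675 (0.609 to 0.747). Dlk1 had no reads, and Dio3 had 5 and 1. The miRNA reads of the 10 hairpins, 2439 and 1858 RPM, thus exceeded the fragments of each of these genes in both libraries.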

How the data were processed

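A sequencing institute built the libraries from size-selected small RNA and sequenced them. The authors deposited tables of distinct tags with counts of clean reads, those left after cleaning for quality, adapters, contaminants and length. These raw counts hold no alignment. The labels name build mm9, which was not used here, and a library kit for RNA.

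Tags were matched with Python 3.11.15 to GENCODE M21 hairpins (GRCm38), folded with ViennaRNA 2.7.2 to part the arms. An arm was given all tags with an overlap of 16 nt or more with its most frequent tag, and arms with identical sequence were merged. Ratios of RPM have exact Clopper-Pearson intervals and arm shares were compared by Fisher's exact test (SciPy 1.17.1). Intervals and floors cover counting error only. The quasi-likelihood test of edgeR needs replicates. Normalization factors of edgeR 4.0.16 and DESeq2 1.42.0 served as alternatives. The procedure was run on simulated counts that held only the sampling of reads. They had no variation between cultures or libraries and cannot show how the procedure fares with it. All members with both arms, the 5 most abundant other arms of the locus and the genes around them were named, and members and lists were chosen with earlier results of these data known. The last line of each table, a total, was left out.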

Additional observations from a re-analysis of the deposited data

How the results depend on the processing

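The number of arms lower by 1.5-fold depended on the denominator and on tag length. It was 4 per clean read and 1 (miR-540-3p) per miRNA-matching read, per read of 20 to 24 nt, with TMM factors of edgeR, with size factors of DESeq2 and at a threshold of 2-fold. It was 2 with tags of 20 nt or more and 1 (miR-433-5p) with tags of 22 nt or more, against 53 of 490 and 41 of 424 among all miRNAs. Hairpins with a different arm share were 1 of 10 with the latter, against 22 of 297 among all hairpins. With perfectly matching tags of all lengths they were 3 of 10, against 43 of 354. The number of higher arms was 0, but 1 with only the tags identical to the most frequent one (miR-136-5p) and 2 without a filter on low counts (miR-673-3p and miR-665-5p, with at most 5 reads). The ratio of miR-434-5p was 1.02 with identical tags and 1.12 with tags of 22 nt or more, and that of miR-136-3p was 1.05 with the latter, all above 1 instead of below. Tags of 22 nt or more and the counting of tailed tags were chosen after seeing the data. Arms below control numbered 15 per clean read and 8 per read of 20 to 24 nt. Over all detected miRNAs, 30 were higher and 69 lower by 1.5-fold per clean read, 48 and 30 per miRNA-matching read, 59 and 23 per read of 20 to 24 nt, and 43 and 34 with either TMM or DESeq2 factors. They were 265 and 297 without a filter and 10 and 16 at 2-fold. No paired analysis was possible because each treatment has 1 library. For the same reason no replicate could be left out. Depth limits the arms under about 10 RPM, and variation between cultures and libraries is unknown for all of them.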
